A study of Homo sapiens with 6 samples.

Results

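The leukemia surface antigens examined here are 10 genes, ANPEP, CD33, CD34, CD38, CD44, CD47, CD99, FUT4, PTPRC and CLEC12A, out of 32364 genes in the deposited expression table. They were taken by symbol from a list, and all 10 were found once each in the table. Kasumi-1 is a human acute myeloid leukemia (AML) cell line of the M2 subtype, established from 1 patient, that carries the t(8;21) translocation and its AML1-ETO fusion. I13 is a histone deacetylase (HDAC) inhibitor containing indole-3-butyric acid. The 6 mRNA sequencing libraries are 3 of control Kasumi-1 cells, where the study describes its control as the matching concentration of the solvent DMSO, and 3 of Kasumi-1 cells incubated with 0.5 μM I13, all at 48 h. The comparison asks whether mRNA of antigens used to type or target AML differs after I13.

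Surface antigens place a blast along the myeloid path. CD34 marks stem and progenitor cells, CD33 and CD13 (the product of ANPEP) mark committed myeloid cells, and CD15 is a sugar structure, built by the fucosyltransferase FUT4, that marks granulocytic and monocytic maturation. CD38, CLEC12A, CD44, CD47 and CD99 have been pursued as targets on leukemic blasts or stem cells, and CD45 (the product of PTPRC) is the common antigen of white blood cells. HDAC inhibitors raise histone acetylation and are known to alter transcription of many genes. The libraries measured transcripts and not antigen at the cell surface.

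Promoter windows of the members were taken from RefSeq (GRCh38.p14) as the 250 bases before the annotated start, and all 10 members had an entry. The windows of 4 members are printed because they hold no more than 16 bases of exon annotated in GENCODE 29. ANPEP and CD33 are the members whose libraries did not overlap between the groups, and CD47 and CLEC12A lie near the ends of the range of base composition. Capitals mark matches, on either strand, to the GC box GGGCGG, the RUNX core TGTGGT and the PU.1-type ETS core GAGGAA, so that a match on the opposite strand appears as its reverse complement. The sequences are given 5′ to 3′ on the strand of the gene. The ANPEP window lies on the minus strand at chr15:89814853-89815102, that of CD33 on the plus strand at chr19:51224830-51225079, that of CD47 on the minus strand at chr3:108091032-108091281 and that of CLEC12A on the plus strand at chr12:9971159-9971408.
ANPEP: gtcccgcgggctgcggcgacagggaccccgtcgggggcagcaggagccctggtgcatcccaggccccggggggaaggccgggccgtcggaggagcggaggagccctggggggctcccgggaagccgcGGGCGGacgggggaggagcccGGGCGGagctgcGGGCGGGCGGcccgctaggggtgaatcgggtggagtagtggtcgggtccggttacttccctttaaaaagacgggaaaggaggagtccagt
CD33: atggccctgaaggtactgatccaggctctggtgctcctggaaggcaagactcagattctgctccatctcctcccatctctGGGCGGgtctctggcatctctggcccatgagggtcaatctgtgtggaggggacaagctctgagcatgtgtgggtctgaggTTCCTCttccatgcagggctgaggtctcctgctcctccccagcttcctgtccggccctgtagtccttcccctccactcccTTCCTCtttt
CD47: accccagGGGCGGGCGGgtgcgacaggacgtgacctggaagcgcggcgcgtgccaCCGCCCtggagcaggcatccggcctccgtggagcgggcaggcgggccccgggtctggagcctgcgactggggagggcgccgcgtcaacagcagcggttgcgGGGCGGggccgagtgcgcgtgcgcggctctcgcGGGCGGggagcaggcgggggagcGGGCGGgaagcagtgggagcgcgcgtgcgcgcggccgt
CLEC12A: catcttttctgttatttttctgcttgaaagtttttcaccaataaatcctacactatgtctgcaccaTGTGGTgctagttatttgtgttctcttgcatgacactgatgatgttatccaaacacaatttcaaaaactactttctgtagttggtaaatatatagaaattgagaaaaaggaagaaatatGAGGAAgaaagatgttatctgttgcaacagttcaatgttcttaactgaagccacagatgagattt

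The ANPEP window precedes its distal start, which is known to be used in myeloid cells, and had a GC content of 74%, 26 CpG dinucleotides and 4 GC boxes, of which a pair overlap. A second RefSeq start of ANPEP, nearer to the coding sequence and known from epithelial cells, had a window of 64.4% GC with none of these motifs, and a gene-level FPKM does not separate the starts. The CD33 window had 58.8% GC, 2 CpG, 1 GC box and 2 ETS cores. CD47 had the most GC-rich window, with 79.6% GC, 39 CpG and 6 GC boxes. CLEC12A had 32.8% GC, no CpG, 1 RUNX core and 1 ETS core. Over 35116 RefSeq windows of the same length the median GC content was 58% and the median CpG count was 11. The GC box occurred in 42.6% of these windows, the RUNX core in 11.0% and the ETS core in 23.6%, and TATAAA, found in 10.7%, was in no member's window. The windows of PTPRC (31.2%), CLEC12A (32.8%) and CD38 (52.4%) had the lowest GC content of the members. These matches describe the letters only, and binding was not measured.

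The libraries held between 16566742 and 17221345 fragments in control cells and between 15281052 and 16682550 in I13 cells, recovered from the deposited values. FPKM relates the fragments of a gene to its length in exons and to the size of the library. For most genes this length covers all annotated exons and not only the transcripts made, so levels between genes compare only approximately. Marker lists were used to check for myeloblasts and for RNA of other cells, and they cannot tell this line from other AML lines. The myeloblast list includes the members CD33 and CD34. All 8 Kasumi-1 myeloblast markers were expressed, led by MPO, the granule peroxidase, with a mean of 11943 FPKM in control and 11027 FPKM in I13 libraries. Lymphoid markers summed to between 1.86 and 2.36 FPKM in control and between 2.03 and 2.80 FPKM in I13 libraries. Erythroid and platelet markers summed to at most 0.145 FPKM, and of the epithelial and stromal list only EPCAM was expressed, at 23.8 ± 2.86 FPKM in control and 23.9 ± 2.04 FPKM in I13 libraries (SD, n = 3). Control replicate 3 and I13 replicate 2 stood apart from the other 4 libraries on the first principal component, which held 43.3% of the variance of 4133 well-expressed genes. The second component (20.5%) separated control from I13. The members are therefore also described within the 4 other libraries and within this pair. The labels do not state what sets the pair apart. With a term for the pair, genes at an unadjusted limma p under 0.05 went from 963 to 1427, and without the pair to 1513, with 3 members among them each time (ANPEP and CD33, with FUT4 or CD34 respectively). No gene passed the adjusted limma p in either case.

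All 10 members were detected in every library, and their control means spanned from CD99 at 75.8 ± 4.36 FPKM to CD38 at 1.06 ± 0.122 FPKM. The order of control means was CD99, CD34, CD44, ANPEP, FUT4, CD33, CD47, PTPRC, CLEC12A and CD38. CD99 was 1.88 times the next gene, CD34. By fragments CD34 was above CD99, with a mean over all libraries of 6402.5 beside 4079. The places of these genes thus turn on the lengths used, 9219 bases for CD34 and 3284 for CD99. Neighbours in the order of control means overlapped between libraries for CD44 and ANPEP, for CD47 and PTPRC and for CLEC12A and CD38. This held in control and in I13 cells alike, and the other neighbours did not overlap. The largest step was from PTPRC to CLEC12A, a ratio of 5.69 in control means. Among the 18726 genes tested, 97.7% had a lower mean FPKM than CD99 and 95.3% a lower one than CD34, against 41.6% for CLEC12A and 39.7% for CD38. The 10 antigen genes thus ranged from high to low mRNA levels in the same libraries, as the plot of FPKM by gene shows.

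**Figure D1:**
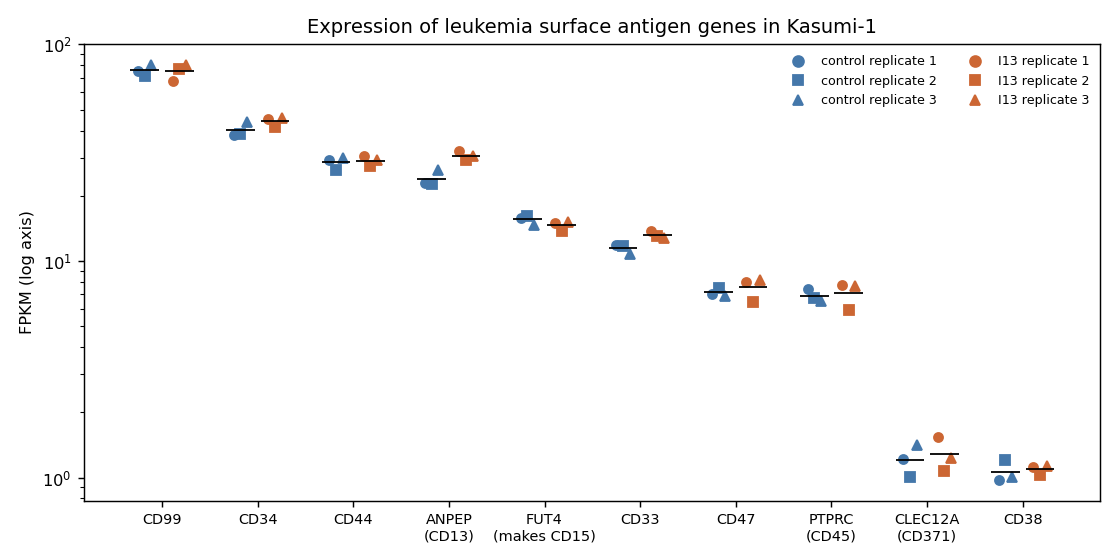
FPKM (log axis) of the 10 antigen genes in each library, with blue symbols for control, orange symbols for I13, marker shapes for replicates and black lines for group means (n = 3). CD99 and CD34 are the highest genes, CLEC12A and CD38 lie near 1 FPKM, and the groups are clear of each other only for ANPEP and CD33.

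In the comparison of I13 with control, none of the 10 members passed limma's test after Benjamini-Hochberg adjustment over all genes, and neither did any of the 18726 genes tested (0%), where the smallest adjusted p was 0.275. At an unadjusted p under 0.05 in limma, 2 of 10 members passed, ANPEP and CD33, beside 963 of 18726 genes (5.14%). Both were higher with I13, a direction taken by 478 genes (2.55%). The groups did not overlap for the same 2 members, beside 1783 genes (9.52%). No member combined an unadjusted p under 0.05 with a log2 fold change of 0.58 or more in size, which 445 genes (2.38%) had. With limma's voom on the recovered fragments, again 2 members passed the unadjusted p (5.37% of 13847 genes) and no member passed the adjusted one (0.0506%, 7 genes).

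The differences were small. The log2 fold change was above 0 for 8 members and below 0 for 2, with a median of 0.058 beside 0.0058 over all genes tested, of which 51.8% were above 0. The median absolute log2 fold change was 0.071 for the members and 0.108 for all genes tested. With limma and with voom on all libraries, the 95% confidence interval of the log2 fold change lay within 0.58 on either side of 0 for all 10 members. This is the size the study set for a changed gene. The bound did not hold in every alternative. Without control replicate 3 and I13 replicate 2, CLEC12A had a log2 fold change of 0.30 with an SE of 0.202, which leaves room beyond 0.58. So did several fits for CLEC12A that dropped a single library, such as 0.18 (SE 0.208) when only control replicate 3 was absent. When only I13 replicate 2 was absent, CLEC12A had 0.19 (SE 0.203). ANPEP had 0.35 with an SE of 0.0919 without the variance trend. Its upper limit there lay close to 0.58, so the bound is not firm for ANPEP either. The study describes its sequencing figures as representative of 3 independent experiments. The labels do not say whether the replicates were separate cultures, so the p-values refer to these libraries only. Limma also draws the variance of each gene toward that of genes at a similar level. Its p-values thus do not rest on the spread of that gene alone. In bulk RNA, fewer cells that express a gene and less RNA per cell cannot be told apart.

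**Figure D2:**
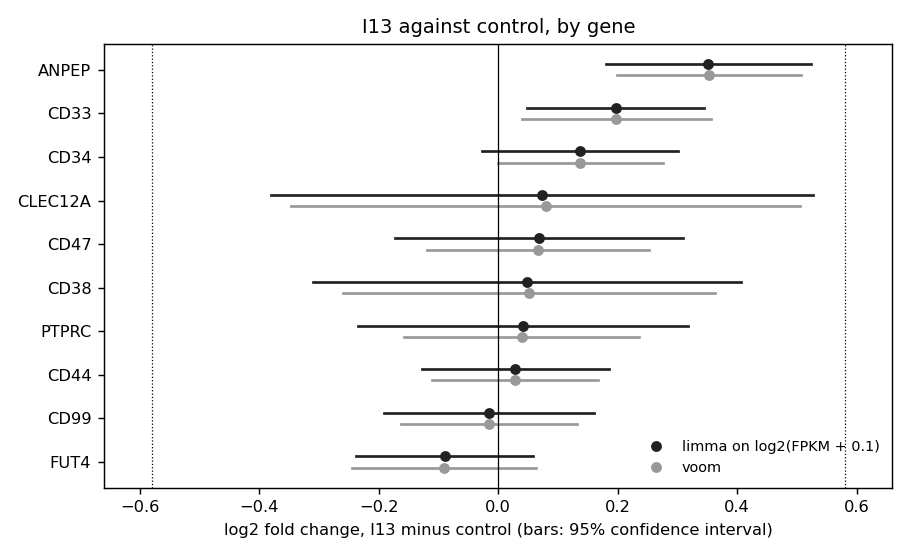
Log2 fold change of each antigen gene, I13 minus control, with 95% confidence intervals (n = 3 per group). Black is limma on log2(FPKM + 0.1), grey is voom on recovered fragments, and dotted lines mark 0.58 on either side of 0, beyond which no interval reaches.

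ANPEP encodes CD13, aminopeptidase N, a surface enzyme that trims peptides and is found on granulocytes, monocytes and their precursors. The gene (ENSG00000166825) spans chr15:89784889-89815401 on the minus strand (GRCh38). Its FPKM was 22.9, 22.7 and 26.4 in control replicates 1, 2 and 3, and 32.0, 29.1 and 30.6 in I13 replicates 1, 2 and 3. The I13 libraries all lay above the control libraries, with control replicate 3 the closest. The mean was 24.0 ± 2.06 FPKM in control and 30.6 ± 1.47 FPKM in I13 libraries (SD, n = 3), a difference of 27.5%. The log2 fold change was 0.35 (SE 0.0728, 95% confidence interval 0.18 to 0.52), a 1.28-fold higher level. In limma the unadjusted p was 0.00184 and the Benjamini-Hochberg adjusted p was 0.540. In voom the unadjusted p was 8.41e-05 and the adjusted p was 0.0832, with 13 genes ranked ahead of it. An exact permutation test of the 6 libraries gave p = 0.1 (two-sided), the smallest that 3 against 3 allows. Between 1899 and 2485 fragments lay on the gene in a library, so counting error alone was about 2.25% in control, where the spread between libraries was 8.59%. The log2 fold change was 0.46 in the 4 libraries without control replicate 3 and I13 replicate 2, and 0.14 between those 2 libraries.

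CD33 is a sialic acid-binding receptor (Siglec) with inhibitory motifs and the target of the antibody-drug conjugate gemtuzumab ozogamicin. The gene (ENSG00000105383) spans chr19:51225064-51243860 on the plus strand. It was at 11.9, 11.8 and 10.8 FPKM in control replicates 1, 2 and 3, and at 13.7, 13.1 and 12.7 FPKM in I13 replicates 1, 2 and 3. All I13 libraries were again above all control libraries. The mean was 11.5 ± 0.613 FPKM in control and 13.2 ± 0.483 FPKM in I13 libraries (SD, n = 3), 14.7% higher, with a log2 fold change of 0.20 (SE 0.0630, 95% confidence interval 0.048 to 0.34). The unadjusted p was 0.0166 in limma and 0.0162 in voom, the Benjamini-Hochberg adjusted p was 0.890 and 0.755, and the exact permutation p was 0.1 (two-sided). The unadjusted call was lost without I13 replicate 1, where the log2 fold change was 0.17. The log2 fold change was 0.15 in the 4 other libraries and 0.28 between control replicate 3 and I13 replicate 2.

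CD34, a sialomucin of progenitor cells, also had a higher mean with I13, but its libraries overlapped. The gene (ENSG00000174059, chr1:207880972-207911402, minus strand) was at 38.3, 38.7 and 43.9 FPKM in control replicates 1, 2 and 3, and at 45.2, 41.7 and 45.9 FPKM in I13 replicates 1, 2 and 3. I13 replicate 2 was below control replicate 3. The mean was 40.3 ± 3.14 FPKM in control and 44.3 ± 2.27 FPKM in I13 libraries (SD, n = 3), a log2 fold change of 0.14 (95% confidence interval -0.027 to 0.30). The unadjusted p was 0.0882 in limma and the adjusted p was 0.962, and the exact permutation p was 0.2 (two-sided). The overlap came from the pair of libraries that stood apart. Without that pair the log2 fold change was 0.24, past the unadjusted p, and between the 2 libraries of the pair it was -0.075. Leaving out control replicate 3 alone gave 0.20, and leaving out I13 replicate 2 alone gave 0.18, both past the unadjusted p and not the adjusted p of limma.

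FUT4 adds fucose to build the Lewis X structure that antibodies to CD15 recognise. The gene (ENSG00000196371, chr11:94543840-94549898, plus strand) was at 15.8, 16.1 and 14.7 FPKM in control replicates 1, 2 and 3, and at 15.0, 13.8 and 15.1 FPKM in I13 replicates 1, 2 and 3. The groups overlapped, with means of 15.5 ± 0.754 FPKM in control and 14.6 ± 0.701 FPKM in I13 libraries (SD, n = 3). For FUT4 the log2 fold change was -0.089 (95% confidence interval -0.24 to 0.059, limma p = 0.197, adjusted p = 0.983), and the exact permutation p was 0.3 (two-sided). It was -0.089 in the 4 libraries and -0.090 in the pair. PIWIL4, a gene on the same strand, shares 683 exon bases with FUT4, so reads there cannot be assigned to either gene with certainty. PIWIL4 had 94 to 187 fragments in a library, beside 1395 to 1676 for FUT4. Its FPKM was 2.17 ± 0.277 in control and 1.42 ± 0.204 in I13 libraries, and the groups did not overlap. The log2 fold change was -0.58 (limma unadjusted p = 0.00686, adjusted p = 0.814).

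**Figure D3:**
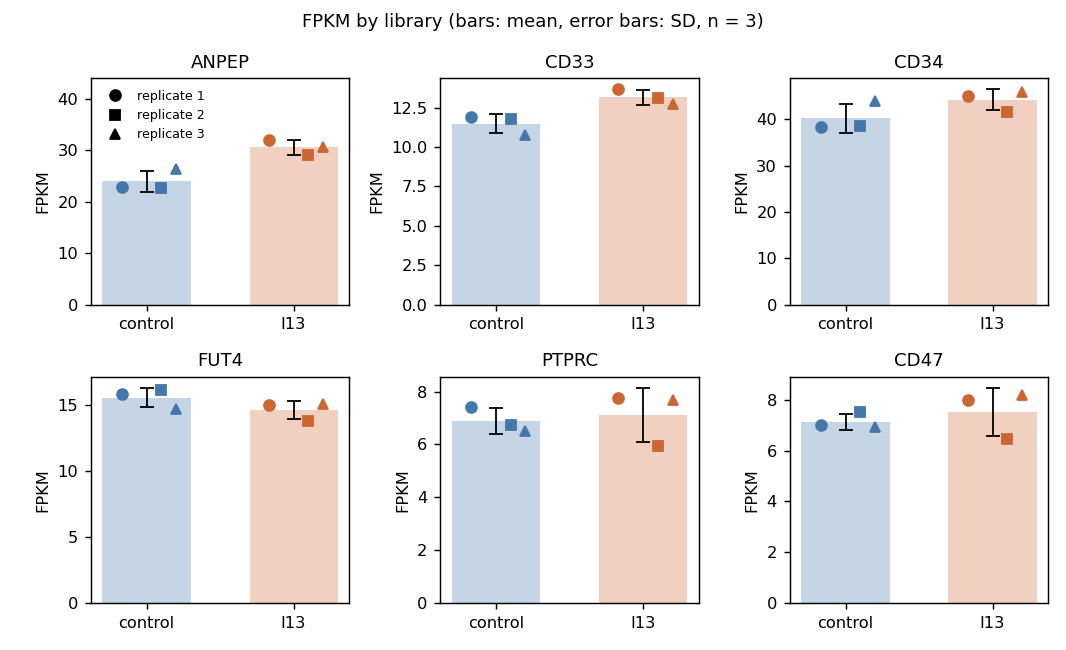
FPKM of 6 antigen genes in each library (points), with bars at the mean and error bars of 1 SD (n = 3 per group), on axes that start at 0. ANPEP and CD33 have all I13 points above all control points, and I13 replicate 2 is the lowest I13 point for ANPEP, CD34, FUT4, PTPRC and CD47.

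CD38 and CLEC12A were the weakly expressed members. CD38 is an ectoenzyme that consumes NAD and the target of daratumumab. Its gene (ENSG00000004468, chr4:15778275-15853230, plus strand) was at 0.974, 1.20 and 1.00 FPKM in control replicates 1, 2 and 3, and at 1.12, 1.03 and 1.14 FPKM in I13 replicates 1, 2 and 3. The I13 libraries lay within the range of the control libraries, on 114 to 141 fragments a library. With I13 the log2 fold change was 0.049 (95% confidence interval -0.31 to 0.41, limma p = 0.758), and the exact permutation p was 0.7 (two-sided). CLEC12A, also named CLL-1, is an inhibitory C-type lectin of myeloid cells and leukemic stem cells. Its gene (ENSG00000172322, chr12:9951316-9995694, plus strand) was at 1.21, 1.00 and 1.41 FPKM in control replicates 1, 2 and 3, and at 1.55, 1.07 and 1.23 FPKM in I13 replicates 1, 2 and 3. The groups overlapped on 56 to 80 fragments a library. For CLEC12A the log2 fold change was 0.074 (95% confidence interval -0.38 to 0.53, limma p = 0.713), and the exact permutation p was 0.7 (two-sided). It was 0.30 in the 4 libraries and -0.37 in the pair. For either gene the interval is wide beside those of the abundant members.

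PTPRC encodes CD45, a receptor phosphatase that sets the activity of Src-family kinases. The gene (ENSG00000081237, chr1:198638457-198757476, plus strand) was at 7.44, 6.72 and 6.51 FPKM in control replicates 1, 2 and 3, and at 7.75, 5.95 and 7.69 FPKM in I13 replicates 1, 2 and 3. I13 replicate 2 was the lowest of all 6 libraries while the other I13 libraries were the highest. The means were 6.89 ± 0.485 FPKM in control and 7.13 ± 1.02 FPKM in I13 libraries (SD, n = 3), and the log2 fold change was 0.041 (95% confidence interval -0.23 to 0.32, limma p = 0.735, exact permutation p = 0.8, two-sided). CD47, the ligand of SIRPA on macrophages that inhibits phagocytosis, had a like order of I13 libraries. Its gene (ENSG00000196776, chr3:108043094-108091862, minus strand) was at 7.02, 7.51 and 6.92 FPKM in control replicates 1, 2 and 3, and at 7.99, 6.45 and 8.19 FPKM in I13 replicates 1, 2 and 3. Here too I13 replicate 2 was lowest and the other I13 libraries highest. The means were 7.15 ± 0.318 FPKM in control and 7.54 ± 0.953 FPKM in I13 libraries (SD, n = 3), with a log2 fold change of 0.068 (95% confidence interval -0.17 to 0.31, limma p = 0.526) and an exact permutation p of 0.6 (two-sided). Relative to the other 4 libraries, control replicate 3 and I13 replicate 2 together were lower by a log2 difference of -0.24 for PTPRC and -0.20 for CD47. Without I13 replicate 2, CD47 had a log2 fold change of 0.18, past the unadjusted p and not the adjusted p of limma.

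CD44 is the receptor for hyaluronan and anchors blasts in the marrow niche. The gene (ENSG00000026508, chr11:35138870-35232402, plus strand) was at 29.2, 26.4 and 30.0 FPKM in control replicates 1, 2 and 3, and at 30.5, 27.6 and 29.2 FPKM in I13 replicates 1, 2 and 3. The ranges overlapped, and the log2 fold change was 0.028 (95% confidence interval -0.13 to 0.19, limma p = 0.681), with an exact permutation p of 0.7 (two-sided). GENCODE 29 lists 39 transcripts for CD44, and the gene-level value does not separate its splice variants. CD99 is a sialoglycoprotein that takes part in leukocyte adhesion and is abundant on blasts. The gene (ENSG00000002586) lies in the pseudoautosomal region, at chrX:2691133-2741309 on the plus strand, with a copy of the same sequence on chromosome Y. It was at 75.3, 71.7 and 80.4 FPKM in control replicates 1, 2 and 3, and at 68.0, 76.7 and 80.5 FPKM in I13 replicates 1, 2 and 3. The lowest and the highest of the 6 values were both I13 libraries. For CD99 the log2 fold change was -0.016 (95% confidence interval -0.19 to 0.16, limma p = 0.838), and the exact permutation p was 1 (two-sided). CD99P1, a pseudogene that resembles CD99, had 66 to 100 fragments a library, beside 3558 to 4374 for CD99.

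Direction within the pair of libraries that stood apart differed between members. ANPEP, CD33 and CD38 had values above 0 both in the 4 other libraries and in the pair, and FUT4 had values below 0 in both. CD34, CLEC12A, PTPRC, CD44, CD47 and CD99 had log2 fold changes above 0 in the 4 libraries (0.010 to 0.30) and below 0 in the pair (-0.37 to -0.068). The pair holds 1 library of each group, so its differences have no replicate check.

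**Figure D4:**
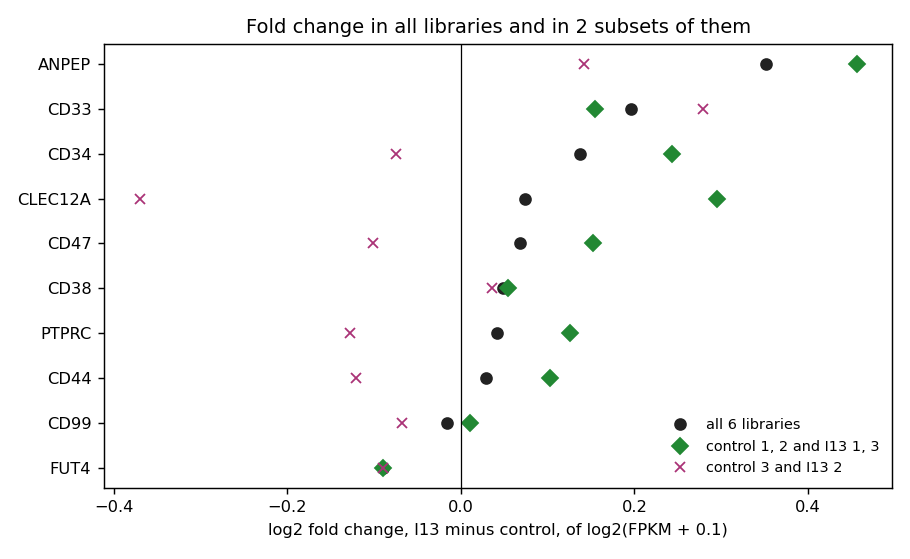
Log2 fold change of each antigen gene, I13 minus control, on log2(FPKM + 0.1), in all 6 libraries (circles), in control replicates 1 and 2 with I13 replicates 1 and 3 (diamonds), and between control replicate 3 and I13 replicate 2 (crosses). ANPEP and CD33 are above 0 and FUT4 below 0 on all 3 measures, and 6 genes change side between diamonds and crosses.

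Ratios between members within a library do not depend on the scaling of the library. These ratios were chosen after the values were seen. The FPKM of ANPEP over that of FUT4 was 1.45, 1.41 and 1.79 in control replicates 1, 2 and 3, and 2.14, 2.11 and 2.03 in I13 replicates 1, 2 and 3. The CD13 gene thus stood further above the gene for the CD15-building enzyme in every I13 library. ANPEP was below CD44 in all 3 control libraries and above it in all 3 I13 libraries, a crossing that depends on the exon lengths used. The FPKM of CD33 over that of CD34 was 0.311, 0.304 and 0.245 in control and 0.303, 0.314 and 0.277 in I13 libraries, in order of replicate, and overlapped. The summed FPKM of the 10 members was 210, 204 and 222 in control and 223, 216 and 232 in I13 libraries, and overlapped too.

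The 5 genes whose log2 FPKM followed ANPEP most closely over the 6 libraries, among 4132 other genes averaging 10 FPKM or more, were GTF3C2 (Pearson r = 0.980), CD74 (0.975), PTPRF (0.970), SRPX (0.968) and NDFIP1 (0.967). CD74, the invariant chain of MHC class II, was at 26.0, 26.1 and 28.7 FPKM in control and at 37.1, 34.4 and 33.3 FPKM in I13 libraries. Among the members, r with ANPEP was 0.896 for CD34, 0.686 for CD33, 0.498 for CD44, -0.015 for CD99 and -0.66 for FUT4. These values describe 6 libraries of 2 groups, which share the group difference and the pair that stood apart, and carry no p.

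Families and partners of the antigens were described through 12 lists of 160 genes, of which 151 were in the table and 101 were tested. None passed the adjusted limma p. At an unadjusted p under 0.05, 1 was higher and 6 were lower with I13, which is 6.93% of the genes tested beside 5.14% of all genes, and the median log2 fold change was -0.031. Voom, with 96 genes tested, had 4 higher and 7 lower at the unadjusted p and 1 past the adjusted p, PECAM1.

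**Figure D5:**
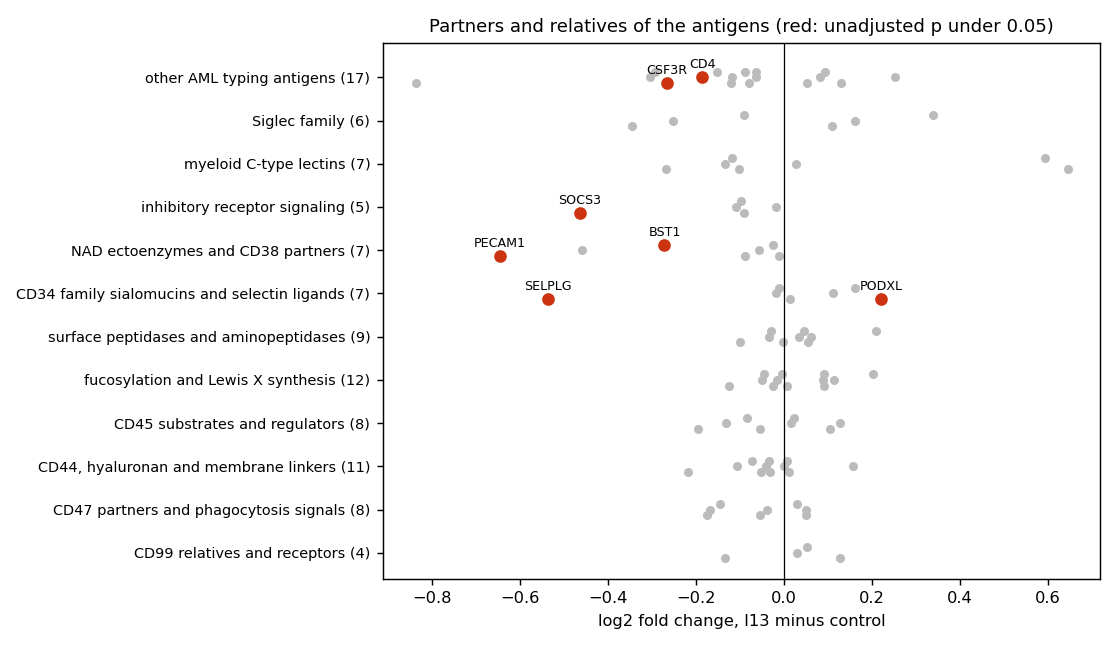
Log2 fold change (limma, I13 minus control) of the tested genes of 12 lists of relatives and partners of the antigens, with the number tested in brackets (n = 3 per group). Red points are the 7 genes with an unadjusted p under 0.05, of which 6 lie below 0 and PODXL lies above it.

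In the list of NAD ectoenzymes and CD38 partners, 2 of 7 tested genes had an unadjusted p under 0.05, both lower, beside 5.14% of all genes tested. PECAM1 (CD31), the adhesion ligand of CD38, was at 2.45, 2.49 and 2.44 FPKM in control replicates 1, 2 and 3, and at 1.30, 1.82 and 1.52 FPKM in I13 replicates 1, 2 and 3. The I13 libraries were all below the control libraries. The log2 fold change was -0.65 (SE 0.140), on 161 to 331 fragments a library. PECAM1 fell by the voom test, with an adjusted p of 0.0373, and did not pass the adjusted p in limma. Its log2 fold change was -0.77 in the 4 libraries without the pair that stood apart and -0.40 within that pair. BST1, the relative of CD38 on the myeloid surface, was at 12.6 ± 0.302 FPKM in control and 10.5 ± 0.775 FPKM in I13 libraries (log2 fold change -0.27, limma adjusted p = 0.787). NADK, an intracellular NAD kinase and the most abundant gene of the list, was at 26.1 ± 2.02 and 25.6 ± 0.868 FPKM.

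Of the other AML typing antigens, 2 of 17 tested had an unadjusted limma p under 0.05, both lower, beside 5.14% of all genes. With voom 1 gene was higher and 2 were lower at the unadjusted p, the higher one being CD96, at 10.1 ± 0.870 FPKM in control and 12.2 ± 1.88 FPKM in I13 libraries (voom log2 fold change 0.25, voom adjusted p = 0.755). CSF3R, the receptor of granulocyte colony-stimulating factor, was at 91.8, 91.0 and 91.0 FPKM in control replicates 1, 2 and 3, and at 71.4, 78.4 and 78.2 FPKM in I13 replicates 1, 2 and 3. No library overlapped, and the log2 fold change was -0.27 (SE 0.0499), with adjusted p-values of 0.517 in limma and 0.101 in voom. CD4, also carried by monocytic cells, was at 26.9 ± 0.702 FPKM in control and 23.7 ± 1.38 FPKM in I13 libraries (log2 fold change -0.19, limma adjusted p = 0.875). KIT, the stem cell factor receptor and the most abundant of this list, was at 225 ± 12.2 and 216 ± 17.1 FPKM. The maturation marker CD14 had a value above 0 in 1 of 6 libraries, at 0.0347 FPKM, and ITGAM (CD11b) was at 0.136 ± 0.0863 FPKM in control and 0.144 ± 0.0416 FPKM in I13 libraries (log2 fold change 0.094, limma adjusted p = 1.00).

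Among the CD34 family sialomucins and selectin ligands, PODXL (podocalyxin) was at 6.51 ± 0.316 FPKM in control and 7.61 ± 0.482 FPKM in I13 libraries (log2 fold change 0.22, limma adjusted p = 0.893). SELPLG, the ligand of P-selectin, was at 2.38 ± 0.183 and 1.63 ± 0.335 FPKM (log2 fold change -0.54, limma adjusted p = 0.875). PODXL2, the most abundant gene of this list, was at 82.2 ± 6.08 and 82.9 ± 4.42 FPKM. PODXL and SELPLG, both with an unadjusted p under 0.05, thus lay on different sides of 0. In inhibitory receptor signaling, which CD33 and CLEC12A use, SOCS3 was at 1.81 ± 0.223 FPKM in control and 1.28 ± 0.0829 FPKM in I13 libraries (log2 fold change -0.46, limma adjusted p = 0.875), the 1 of 5 tested genes with an unadjusted p under 0.05, and the phosphatase PTPN11 was at 35.4 ± 1.64 and 35.1 ± 3.79 FPKM.

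In the remaining 8 lists no gene had an unadjusted limma p under 0.05, while voom had 1 higher gene among the C-type lectins, 1 higher among the surface peptidases and 1 lower among the CD45 substrates and regulators. Among 6 tested Siglecs the most abundant was SIGLEC12, at 16.6 ± 1.37 FPKM in control and 17.9 ± 0.607 FPKM in I13 libraries. CLEC11A, a secreted lectin of the C-type family, was far above CLEC12A, at 854 ± 76.0 and 869 ± 40.8 FPKM. The surface peptidase list, to which ANPEP is related by function, had 9 tested genes, was led by DPP7, at 75.6 ± 4.50 and 78.1 ± 5.67 FPKM, and had a median log2 fold change of 0.034. The 12 tested genes of fucosylation and Lewis X synthesis had a median of 0.00072, with B3GNT2 the most abundant, at 13.9 ± 1.73 and 15.1 ± 1.27 FPKM, and FUT7 above 0 in 1 of 6 libraries. CSK, the kinase that opposes CD45, was at 36.7 ± 1.62 and 34.7 ± 3.02 FPKM. For CD44 the linker MSN (moesin) was at 188 ± 10.4 and 188 ± 7.44 FPKM, and for CD47 the phagocytosis signal CALR (calreticulin) was at 1695 ± 51.5 and 1732 ± 90.4 FPKM. SIRPA, the receptor of CD47, was at 18.0 ± 1.22 FPKM in control and 16.3 ± 1.69 FPKM in I13 libraries, and CD99L2, the relative of CD99, was at 23.4 ± 0.800 and 24.3 ± 1.24 FPKM.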

How the data were processed

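The 6 libraries were grouped by their labels into 3 control and 3 I13 libraries. RNA was extracted with Trizol and sequenced after a TruSeq Stranded mRNA preparation. The deposited table gives FPKM values of Ensembl genes in each library, and these were not rescaled. The submitters' processing notes name Trimmomatic, HISAT2, Cufflinks, HTSeq and hg38, without versions, and the annotation release and strand setting were not stated in the sources used here. Reads from overlapping or near-identical genes may therefore be shared.

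Gene models came from GENCODE release 29 (GRCh38), which names 32244 of 32364 identifiers. With its exon lengths, 25773 of 27002 genes above 0 (95.4%) came out as whole fragments in every library (tolerance 0.01), and for 1322 others, including PTPRC, CD44, CD47 and CD99, the step shared by their values was used. The depth was 15281052 to 17221345 fragments. Counting error computed from recovered fragments leaves out other spread between libraries.

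Genes averaging 0.1 FPKM or more were tested on log2(FPKM + 0.1) with limma 3.58.1 in R 4.3.3 (2 groups, variance trend, no block, two-sided, Benjamini-Hochberg), and a fold change on this scale understates the change of low genes. Voom was run on genes with a mean of at least 10 recovered fragments. The study states its thresholds (corrected p 0.05, log2 fold change 0.58) but no model. Exact permutation tests, promoter counts and figures were made in Python 3.11.15. The scripts were tested on simulated data. Other pseudocounts, filters, scalings and sample sets were tried.

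The genes named are the 10 members, up to 3 genes a related list by unadjusted p, the most abundant gene of each list, genes at or near 0, and the 5 genes most like the member with the smallest p. SIRPA, CD96, PIWIL4, CD99P1 and the markers MPO and EPCAM were added after their values were seen. The members and lists were chosen with earlier results of these data known.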

Additional observations from a re-analysis of the deposited data

How the results depend on the processing

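No library group is larger than 3, so the spread rests on few samples, and CD38 and CLEC12A rest on at most 141 fragments a library. Across 16 alternatives (pseudocounts, filters, scaling, no variance trend, voom, the replicate block, a term for the pair of libraries that stood apart, and libraries left out) ANPEP kept its unadjusted call in all 16, with a log2 fold change of 0.31 to 0.46 and adjusted p-values of 0.0832 to 1.00. CD33 ranged from 0.15 to 0.22 and lost its call only without I13 replicate 1. The number of genes past the adjusted p went from 0 to 9 without the variance trend and to 7 with voom, and from 0 to 2 when single libraries were left out. The number at the unadjusted p went from 963 to 582 at a mean FPKM of at least 1, a filter that leaves fewer genes to test. It lay between 764 and 1513 when libraries were left out. Members at the unadjusted p numbered 3 with the pair term, FUT4 being added, where the count over all genes also rose, to 1427. They numbered 1 to 4 when libraries were left out. The 1 was without I13 replicate 1, beside 815 of all genes. The 4 (ANPEP, CD33, CD34 and CD47) were without I13 replicate 2, beside 1233 of all genes. Genes of the related lists at the unadjusted p were 7 of 101 tested, beside 963 of all genes. With voom they were 11 of 96, beside 743 of all genes (5.37%), and with the pair term 15, beside 1427 of all genes. They lay between 6 and 14 when libraries were left out. There were 14 without both libraries of the pair, beside 1513 of all genes, and 13 without I13 replicate 2, beside 1233. The direction reversed only when libraries were left out. It did so for CD38 (-0.0036 without control replicate 1, otherwise up to 0.13), CLEC12A (-0.044 without control replicate 2 and -0.060 without I13 replicate 1, otherwise up to 0.30), PTPRC (-0.023 and -0.018 without I13 replicates 1 and 3, otherwise up to 0.16), CD44 (-0.027 without control replicate 2 and -0.0057 without I13 replicate 1, otherwise up to 0.10) and CD99 (0.010 without the pair, 0.027 without control replicate 3 and 0.053 without I13 replicate 1, otherwise down to -0.068). The cause was not tested.

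Of the same-numbered libraries, replicates 1 deviated together (correlation of 0.32) and replicates 2 and 3 did not (-0.38 and -0.30). The highest correlation, 0.51, was between control replicate 3 and I13 replicate 2, so the numbers were not read as pairs. With the replicate block 862 genes passed the unadjusted p and 0 the adjusted p in limma, and the 2 members ANPEP and CD33 still passed the unadjusted p.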
